A study of Mus musculus with 12 samples.

Results

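PB3 is a mouse breast cancer cell line that lacks the estrogen and progesterone receptors and Her2. The paclitaxel-resistant derivative, PAC-R, was compared with the untreated parental cells, Control, in 6 of the study's 12 RNA-seq libraries, 3 of each. PAC-R cells came from selection in paclitaxel at 300, 500 and 800 nM, and the protocol calls such derivatives resistant clones without giving their number. The other 6 libraries are derivatives selected at the same concentrations of vinorelbine (VIN-R) or eribulin (ERI-R). They give values set beside those of PAC-R, a direct test against VIN-R and an alternative fit of all 12 libraries. They also enter the scaling of the levels given per library. Every expressed gene entered the comparison, with the presence of macrophage RNA in a library as a covariate, since each group held 2 libraries with it and 1 without. Whether the numbered libraries of a group came from separate cultures is not stated, so p-values cover the spread between these libraries, which may be technical. PAC-R carries paclitaxel as its treatment label, and no label says whether the drug was present at harvest.

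Paclitaxel binds beta-tubulin inside the microtubule and stabilises the polymer, so that spindles fail to form normally and cells arrest in mitosis. In cultured cells, resistance to it is best known from P-glycoprotein, a pump of the plasma membrane that mice encode in the genes Abcb1a and Abcb1b. A switched use of beta-tubulin isotypes, altered microtubule-associated proteins, weakened apoptosis and a shift from epithelial to mesenchymal expression have been described with it as well.

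Genes were tested with edgeR's quasi-likelihood test, 13144 in all, and called where the p adjusted by the method of Benjamini and Hochberg was under 0.05. Only 4 genes, 0.0304% of those tested, were called, of which 1 was higher in PAC-R (0.00761%) and 3 were lower (0.0228%). They were Cavin1, Cd34, C130074G19Rik and Prl3d2. The promoters of these genes are shown because the results turn on them. Each runs from 250 bases before to 50 bases after the transcription start, from RefSeq on GRCm38.p6, and is written 5′ to 3′ on the strand of its gene. The gene spans given further on come from GENCODE M21, whose starts can differ. The Cavin1 window lies wholly within its span. Capitals mark matches, on either strand, to GGGCGG, known as the GC box, to CCAAT, to the promoter element TATAAA, or to CACCTG, an E-box that Snail and Zeb factors bind.
Cavin1, chr11:100970568-100970867, minus strand: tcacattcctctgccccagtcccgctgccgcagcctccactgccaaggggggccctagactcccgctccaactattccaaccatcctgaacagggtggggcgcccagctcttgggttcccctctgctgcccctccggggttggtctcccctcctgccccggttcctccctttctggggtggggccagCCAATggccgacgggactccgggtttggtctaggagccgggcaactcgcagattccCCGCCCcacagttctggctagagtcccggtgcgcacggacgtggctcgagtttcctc
Cd34, chr1:194938571-194938870, plus strand: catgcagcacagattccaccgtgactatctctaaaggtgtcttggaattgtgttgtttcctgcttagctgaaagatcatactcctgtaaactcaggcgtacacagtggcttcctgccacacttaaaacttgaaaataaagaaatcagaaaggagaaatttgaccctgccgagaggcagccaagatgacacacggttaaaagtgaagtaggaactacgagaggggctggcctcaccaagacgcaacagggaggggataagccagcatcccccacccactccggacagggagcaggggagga
C130074G19Rik, chr1:184882987-184883286, minus strand: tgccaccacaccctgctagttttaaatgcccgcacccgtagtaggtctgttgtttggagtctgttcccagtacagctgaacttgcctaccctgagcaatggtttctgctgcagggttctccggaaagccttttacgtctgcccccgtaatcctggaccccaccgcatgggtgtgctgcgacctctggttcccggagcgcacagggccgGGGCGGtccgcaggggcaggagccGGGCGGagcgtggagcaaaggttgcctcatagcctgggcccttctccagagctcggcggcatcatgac
Prl3d2, chr13:27121445-27121744, plus strand: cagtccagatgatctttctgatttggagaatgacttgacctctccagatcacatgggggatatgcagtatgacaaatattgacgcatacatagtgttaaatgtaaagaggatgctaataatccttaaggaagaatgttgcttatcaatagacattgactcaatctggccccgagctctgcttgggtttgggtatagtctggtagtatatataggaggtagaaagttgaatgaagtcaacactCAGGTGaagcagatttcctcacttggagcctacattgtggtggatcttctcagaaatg
The Cavin1 window had 66.7% G and C, 17 CG dinucleotides, 1 GC box in reverse (CCGCCC) and 1 CCAAT. The C130074G19Rik window had 61.7% G and C, 17 CG dinucleotides and 2 GC boxes. The Cd34 window, with 50% G and C and 7 CG dinucleotides, held no match. The Prl3d2 window was the poorest in G and C, with 41.0% and 2 CG dinucleotides, and held 1 E-box in reverse (CAGGTG). Over 27025 promoters of the same length the medians were 52.7% G and C and 7 CG dinucleotides. GGGCGG occurred in 35.9% of them, CCAAT in 37.9%, CACCTG in 20.03% and TATAAA in 14.2%. The matches are descriptions of these letters, and nothing is drawn from them about binding.

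The 6 libraries held between 11229321 and 13454395 expected counts. The first principal component, with 83.0% of the variance, separated PAC-R 1, PAC-R 2, Control 2 and Control 3, which had macrophage RNA, from PAC-R 3 and Control 1, which did not. The same division held for mitochondrially encoded RNA, at 3.22%, 4.02% and 1.84% of counts in PAC-R 1, 2 and 3, against 2.45%, 3.45% and 4.09% in Control 1, 2 and 3. Ribosomal protein genes took 3.71%, 4.504% and 8.17% in PAC-R, against 5.25%, 4.17% and 4.43% in Control. The library of each group without macrophage RNA was thus the highest in ribosomal protein genes and the lowest in mitochondrially encoded RNA. The part of these differences in the first component, and in the results on the macrophage covariate, was not tested. The second component held 9.23%. All 25 listed macrophage markers had a count in at least 1 of the 6 libraries, and their summed level ranged from 43.8 to 9626 CPM in PAC-R and from 19.4 to 5037 CPM in Control. Levels are given as CPM, counts scaled to the size of each library. Lyz2, the lysozyme of macrophages, was at 1399, 509 and 0 CPM in PAC-R 1, 2 and 3, against 0, 712 and 284 CPM in Control 1, 2 and 3. The libraries with macrophage RNA therefore did not carry equal amounts of it, and the covariate does not adjust for that. Markers of other cell types were in part at 0 in all 6 libraries: 3 of 16 for endothelium and pericytes (Tie1, Emcn and Cldn5), 6 of 21 for other leukocytes (Cd3e of T lymphocytes among them) and 9 of 17 for adipocytes, erythroid cells and muscle (Adipoq and Plin1 among them). The rest of each list was detected, with summed levels of up to 149.7, 210.2 and 29.02 CPM in PAC-R and up to 126.1, 79.4 and 10.7 CPM in Control. Of the genes used to check the cultured cells, the simple keratin gene Krt8 was at 648, 541 and 1811 TPM in PAC-R, against 1026, 736 and 482 TPM in Control (TPM give a level per length). The mesenchymal filament gene Vim was at 3185, 2169 and 4198 TPM in PAC-R, against 3814, 3211 and 2469 TPM in Control. In such bulk libraries, fewer cells of a kind and less RNA per cell cannot be told apart.

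Cavin1, which encodes the protein that coats caveolae together with caveolins and gives these membrane pits their shape, was the called gene that rose. It lies at chr11:100956733-100970887 on the minus strand. Cavin1 was at 20.5, 19.3 and 25.8 CPM in PAC-R 1, 2 and 3, against 3.68, 1.76 and 1.92 CPM in Control 1, 2 and 3. All PAC-R libraries lay far above all Control libraries. The log2 fold change was 3.21 (SE 0.24, adjusted p = 0.0223). On the log2 CPM scale the difference was 3.38 between libraries with macrophage RNA and 2.78 between the libraries without it. VIN-R held 3.68, 2.92 and 3.02 CPM and ERI-R 1.07, 0.457 and 0 CPM.

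Cd34 encodes a sialomucin of the cell surface that is best known from blood progenitors and vascular endothelium. It lies at chr1:194938819-194961279 on the plus strand. Cd34 fell to 1.92, 1.85 and 2.16 CPM in PAC-R 1, 2 and 3, against 24.4, 20.02 and 28.2 CPM in Control 1, 2 and 3. The groups did not overlap and the PAC-R values were nearly equal to each other. The log2 fold change was -3.60 (SE 0.24, adjusted p = 0.0223), with differences of -3.60 between the libraries with macrophage RNA and -3.45 between those without. In VIN-R the gene varied widely, at 4.51, 1.004 and 14.5 CPM, and in ERI-R it was at 0.152, 0.457 and 0 CPM. Every VIN-R and ERI-R library thus also lay under every Control library. Of the 16 endothelial and pericyte markers, 8 were tested, 7 with positive and 1 with a negative log2 fold change, and their median was 0.72 (0.98 between libraries with macrophage RNA and -1.07 between those without). The summed level of the list was 54.4 to 149.7 CPM in PAC-R and 80.3 to 126.1 CPM in Control. The part of such cells in the Cd34 values was not tested.

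C130074G19Rik, a protein-coding gene at chr1:184871926-184883218 on the minus strand, is named here because the called genes are few, although the naming rule leaves out genes known by a clone name. It was at 0.287, 0.757 and 1.04 CPM in PAC-R 1, 2 and 3, against 22.2, 18.3 and 18.6 CPM in Control 1, 2 and 3. Every PAC-R library was near the counting floor of 3 counts, which is 0.225 to 0.261 CPM, or a few times above it, while every Control library was far above it. The log2 fold change was -4.80 (SE 0.352, adjusted p = 0.0223), with differences of -5.06 between libraries with macrophage RNA and -4.30 between those without. VIN-R was also low, at 1.42, 1.73 and 2.51 CPM.

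Prl3d2 belongs to the placental lactogens, prolactin relatives made by trophoblast giant cells, and its copies Prl3d1 and Prl3d3 are so alike that reads may be shared among them. It lies at chr13:27121698-27127555 on the plus strand. Prl3d2 had 0, 0 and 0.224 CPM in PAC-R 1, 2 and 3, against 16.9, 3.35 and 2.62 CPM in Control 1, 2 and 3. The 3 PAC-R libraries together held 3 counts and the 3 Control libraries 304, and Control 1, without macrophage RNA, held most of the RNA. Control exceeded PAC-R by a ratio of 97.2, with a 95% counting interval from 32.9 to 473.8. The fitted log2 fold change was -6.54 (SE 0.55, adjusted p = 0.0367). The differences within the libraries with and without macrophage RNA, at -5.20 and -5.79, had the same direction. In VIN-R the levels were 0.334, 0.0913 and 1.03 CPM, and ERI-R was at 0 in all 3 libraries.

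**Figure D1:**
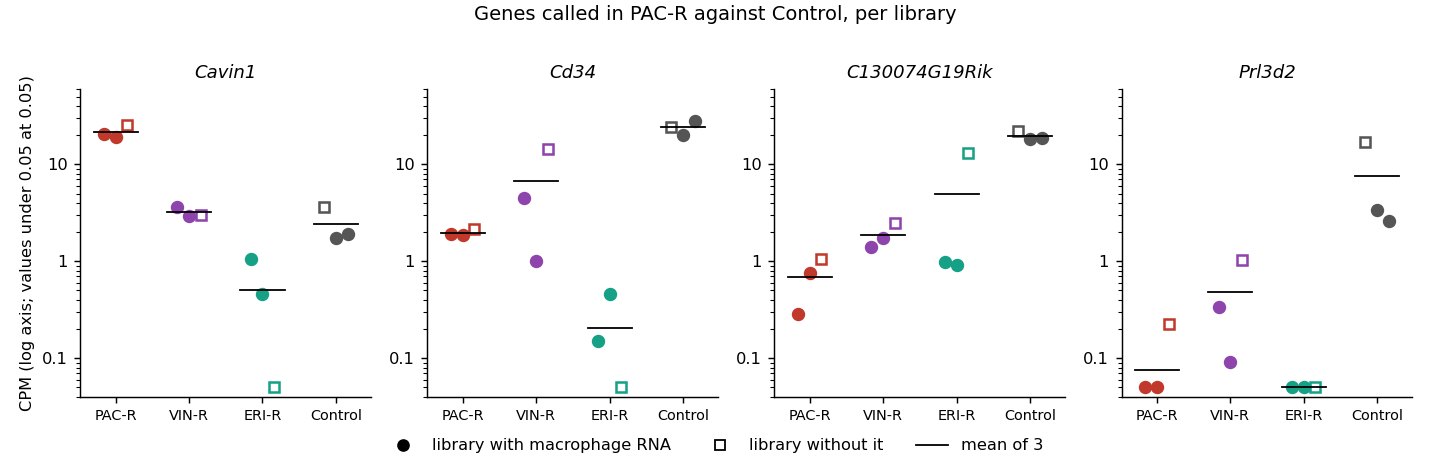
Levels of Cavin1, Cd34, C130074G19Rik and Prl3d2 in CPM (log axis, values under 0.05 drawn at 0.05) in each library of PAC-R, VIN-R, ERI-R and Control. Filled circles are libraries with macrophage RNA, open squares those without it, and lines the means of 3; Cavin1 is at 19.3 to 25.8 CPM in PAC-R and at most 3.68 CPM in every other library.

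Leaving out a library ended most of the calls. Without PAC-R 1, 2 or 3, or without Control 1 or 3, no gene was called, and without Control 2 only Cd34 (adjusted p = 0.0348) and C130074G19Rik (adjusted p = 0.0441) were. Over the 6 omissions the log2 fold change of Cavin1 ranged from 3.10 to 3.43, Cd34 from -3.72 to -3.44, C130074G19Rik from -5.08 to -4.48 and Prl3d2, with the widest range of the 4, from -8.14 to -6.36. DESeq2, fitted to the same libraries and covariate, called 37 genes higher and 61 lower, and all 4 genes were among these 98 (0.746% of those tested).

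The nearest tested genes on either side of the called ones were examined next. The tested neighbours of Cavin1 on chromosome 11 were Stat5a and Stat3 on one side and Atp6v0a1 and Naglu on the other, with log2 fold changes of 0.19, 0.50, 0.11 and 0.25. Plxna2, the nearest tested gene before Cd34, was at -0.39, and A330023F24Rik after it at -0.25. Marc2 and Mark1, which flank C130074G19Rik, were at 0.06 and -0.28. None of the 16 nearest tested genes was called, but only 0.0304% of all genes were, so a count of 0 says little about these neighbours. Those of Prl3d2 lay 628518 to 2101319 bases away from it.

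Cavin1 was also set beside its caveolar partners, a list chosen after its values were seen. Among its 8 tested members, Cavin1 was the only called gene, and the median log2 fold change was 0.07, against 0.01 over all genes. Cavin1 itself counts in both values. Only 0.0304% of all genes were called, so the lack of further calls says little about the other members. Cav1, the main structural caveolin, was at 306, 348 and 201 TPM in PAC-R, against 303, 293 and 243 TPM in Control, a far higher level per length than that of Cavin1, at 8.64, 9.15 and 10.2 TPM in PAC-R, against 1.86, 0.8 and 0.94 TPM in Control. The groups overlapped in Cav1, and its log2 fold change was 0.24 (adjusted p = 0.751). Cav2 had a log2 fold change of 0.01 (adjusted p = 0.995), a value whose sign depended on the processing. Cavin2, another coat protein, was at 173, 183 and 144 CPM in PAC-R, against 214, 224 and 244 CPM in Control, with every PAC-R library under every Control library, and its log2 fold change of -0.45 was not called (adjusted p = 0.741). Cavin3 was at 0.59 (adjusted p = 0.741), Ehd2, an ATPase of the caveolar neck, at 0.01, and the membrane-bending Pacsin2 and Pacsin3 at 0.14 and -0.17.

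Beyond the called genes, 777 genes (5.91%) had an unadjusted p under 0.05, 381 of them higher in PAC-R (2.9%) and 396 lower (3.01%). The genes of the next paragraphs were named after their values were seen. They are the 12 with the smallest unadjusted p on each side among genes with at least 5 CPM in the higher group, groups apart in both kinds of library and no clone-type symbol. Cldn4 and Aldh3a1, among these, are described with their lists. Cacna1c, with less than 5 CPM, Peg10 and Prl2c3 were added to them. edgeR called none, and DESeq2 called each of them except Prl2c3.

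On the lower side, Acsl6, an acyl-CoA synthetase for long-chain fatty acids, was at 2.39, 2.69 and 1.42 CPM in PAC-R, against 14.0, 12.4 and 16.4 CPM in Control (log2 fold change -2.74, edgeR adjusted p = 0.0894, DESeq2 3.1e-10). Pax6, a transcription factor of eye and brain development, had 0.670, 0.926 and 0.896 CPM in PAC-R, against 5.63, 7.29 and 7.25 CPM in Control (log2 fold change -2.97, edgeR 0.0894, DESeq2 5.9e-08). Sgce, the imprinted gene for epsilon-sarcoglycan, had 8.91, 7.995 and 5.30 CPM in PAC-R, against 19.8, 25.8 and 28.3 CPM in Control (log2 fold change -1.75, edgeR 0.0894, DESeq2 5.1e-09). In each of these genes all PAC-R libraries lay under all Control libraries, as in 4.7% of all genes tested. Groups apart in both kinds of library were a condition of naming them, so this separation adds no support. Peg10, the imprinted gene next to Sgce on chromosome 6, was at 2.68, 4.04 and 1.87 CPM in PAC-R, against 10.8, 6.62 and 9.25 CPM in Control, again without overlap (log2 fold change -1.64, edgeR adjusted p = 0.464, DESeq2 0.0316). Myh10, the heavy chain of non-muscle myosin IIB, was at 17.3, 17.8 and 23.8 CPM in PAC-R, against 60.8, 42.0 and 42.3 CPM in Control and had a log2 fold change of -1.29 (DESeq2 adjusted p = 3.1e-07). Hs6st2, which sulfates heparan sulfate, was at -2.66 (DESeq2 5.8e-08), the retinoic acid binding protein gene Crabp1 at -3.37 (1.8e-05), the zinc finger gene Zfp618 at -2.31 (3.4e-05) and Megf6 at -1.71 (2.5e-05). Jag2, a ligand of Notch receptors, was at 0.862, 0.757 and 0.970 CPM in PAC-R, against 7.51, 5.61 and 3.49 CPM in Control (log2 fold change -2.64, DESeq2 adjusted p = 3.5e-05). Npnt, which encodes the integrin ligand nephronectin, was close to equal in the PAC-R libraries at 28.4, 28.5 and 29.1 CPM in PAC-R, against 72.8, 59.9 and 53.2 CPM in Control (DESeq2 adjusted p = 0.00011), and the homeobox gene Lhx8 had a log2 fold change of -2.47 (DESeq2 0.00031).

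On the higher side, Cacna1c, the pore of an L-type calcium channel, was at 4.02, 4.63 and 3.51 CPM in PAC-R, against 0.289, 0.251 and 0.0873 CPM in Control, and all Control libraries were near or under the floor of 3 counts. Its log2 fold change was 4.18 (edgeR adjusted p = 0.108, DESeq2 1.7e-06), and VIN-R held 3.01, 2.83 and 3.02 CPM, close to PAC-R. Nnmt, which methylates nicotinamide, was at 6.13, 6.82 and 7.09 CPM in PAC-R, against 1.59, 0.754 and 1.22 CPM in Control (log2 fold change 2.51, edgeR adjusted p = 0.156, DESeq2 3.2e-06). Dmp1, an acidic matrix protein of bone and dentin, was at 23.8, 60.6 and 46.5 CPM in PAC-R, against 10.5, 4.94 and 3.23 CPM in Control (log2 fold change 2.94, edgeR 0.214, DESeq2 1.1e-07). Anxa8, a membrane-binding annexin, had 9.002, 9.76 and 27.8 CPM in PAC-R, against 3.61, 2.85 and 2.79 CPM in Control (log2 fold change 2.16, edgeR 0.191, DESeq2 6.3e-06). The groups did not overlap in any of these 4 genes, and 2.65% of all genes tested had every PAC-R library above every Control library. Here too the separation adds no support, since the genes were named with it known. The apolipoprotein L genes Apol9a and Apol9b, which are near-identical and may share reads, had log2 fold changes of 2.09 and 1.98 (DESeq2 adjusted p = 2e-08 and 4e-07). Tnfrsf26, a member of the TNF receptor superfamily, was at 7.09, 8.25 and 5.45 CPM in PAC-R, against 1.88, 2.35 and 2.01 CPM in Control (log2 fold change 1.73, DESeq2 adjusted p = 0.0005). Cadps2, a factor of dense-core vesicle release, was at 1.53 (DESeq2 0.00277), and the peptide hormone gene Cck at 2.10 (0.00041). Eno3, the muscle enolase, and Ifi27, an interferon-induced gene, were at 1.09 and 1.20 (0.00038 and 0.00011). Prl2c2, a proliferin, was at 1.25 (0.00059) and its close copy Prl2c3 at 0.40, and reads may be shared between them.

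**Figure D2:**
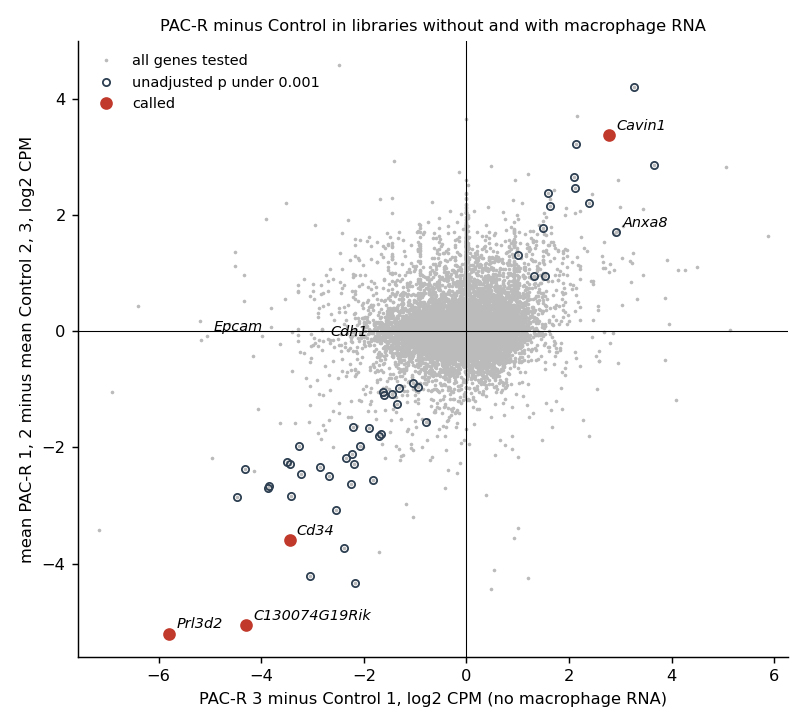
Differences in log2 CPM of every gene tested, PAC-R 3 minus Control 1 (libraries without macrophage RNA, horizontal axis) against the mean of PAC-R 1 and 2 minus the mean of Control 2 and 3 (libraries with it, vertical axis). The 4 called genes lie far from 0 on both axes, at 3.38 and 2.78 for Cavin1 with and without macrophage RNA, while Epcam lies at -0.08 with it and -5.06 without it.

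The drug export pumps were compared because P-glycoprotein removes paclitaxel from cells. Abcb1a was at 36.1, 41.5 and 28.5 CPM in PAC-R 1, 2 and 3, against 16.4, 22.7 and 23.4 CPM in Control 1, 2 and 3. Every PAC-R library was above every Control library, with a log2 fold change of 0.77 (SE 0.16, unadjusted p = 0.00234), which was not called by edgeR (adjusted p = 0.390) and was called by DESeq2 (0.0337). The difference was 0.75 between libraries with macrophage RNA and 0.80 between those without. Abcb1b, the more abundant copy, was at 90.2, 93.6 and 68.1 CPM in PAC-R, against 60.1, 69.4 and 71.2 CPM in Control, where PAC-R 3 lay within the Control range (log2 fold change 0.32, adjusted p = 0.741). The genes are so alike that reads may be shared. VIN-R had 50.6, 45.3 and 33.0 CPM of Abcb1a, all above the highest Control library, while ERI-R had 3.04, 4.27 and 0.946 CPM. Abcb4, the neighbouring phospholipid pump, was low, at 2.78, 1.01 and 0.0746 CPM in PAC-R, against 0.217, 0.921 and 0.873 CPM in Control. Of the 18 tested genes among the P-glycoprotein genes and their chromosome 5 neighbours, Abcb1a was the gene with an unadjusted p under 0.05, and the median log2 fold change was 0.01. Abcc1, the multidrug resistance pump MRP1, was at 197, 221 and 217 CPM in PAC-R, against 239.9, 182 and 196 CPM in Control, with overlapping groups (log2 fold change 0.05, adjusted p = 0.925). Abcg2, the breast cancer resistance pump, was at -0.25 (adjusted p = 0.789). Over 22 further transporters, 0 was higher and 1 lower at an unadjusted p under 0.05, and the lower one was the organic anion carrier Slco4a1 (-0.69). Over all genes 2.9% were higher and 3.01% lower at that threshold, so counts of 0 and 1 in lists of 18 and 22 say little about the pumps as a group.

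None of the 14 tested tubulin genes was called and none had an unadjusted p under 0.05. Over all genes 0.0304% were called and 5.91% had an unadjusted p under 0.05, so counts of 0 among 14 say little about tubulins as a group. Their median log2 fold change was 0.09, a value whose sign depended on the libraries (-0.13 without Control 1, 0.42 without Control 2). Tubb5, the main beta-tubulin, was at 1025, 696 and 1769.6 CPM in PAC-R 1, 2 and 3, against 1426, 1287 and 779 CPM in Control 1, 2 and 3, so that the groups overlapped fully (log2 fold change -0.07, SE 0.28). Tubb4b had 0.10, Tubb2a 0.16 and Tubb6 0.29. Tubb3, the neuronal isotype linked to taxane resistance in human tumours, was low, at 5.75, 1.60 and 9.63 CPM in PAC-R, against 7.72, 8.88 and 4.80 CPM in Control, with a log2 fold change of -0.47 (SE 0.54, adjusted p = 0.807). Tubb2b was at -0.48 (SE 0.30, adjusted p = 0.741). As shares of all beta-tubulin TPM, Tubb5 made up 54.1%, 58.2% and 48.3% in PAC-R, against 53.1%, 56.9% and 59.5% in Control. Tubb2b made up 3.35%, 4.18% and 3.63% in PAC-R, against 4.57%, 5.28% and 5.41% in Control, and it was the isotype whose shares did not overlap between the groups. In CPM, a measure unlike these shares, 4.7% of all genes tested had every PAC-R library under every Control library. In TPM itself the groups overlapped for Tubb2b, at 36.5, 32.7 and 71.4 TPM in PAC-R, against 84.4, 74.6 and 48.25 TPM in Control. The shares are parts of a total, so they depend on each other, and they were not tested. Closely related tubulins may share reads.

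**Figure D3:**
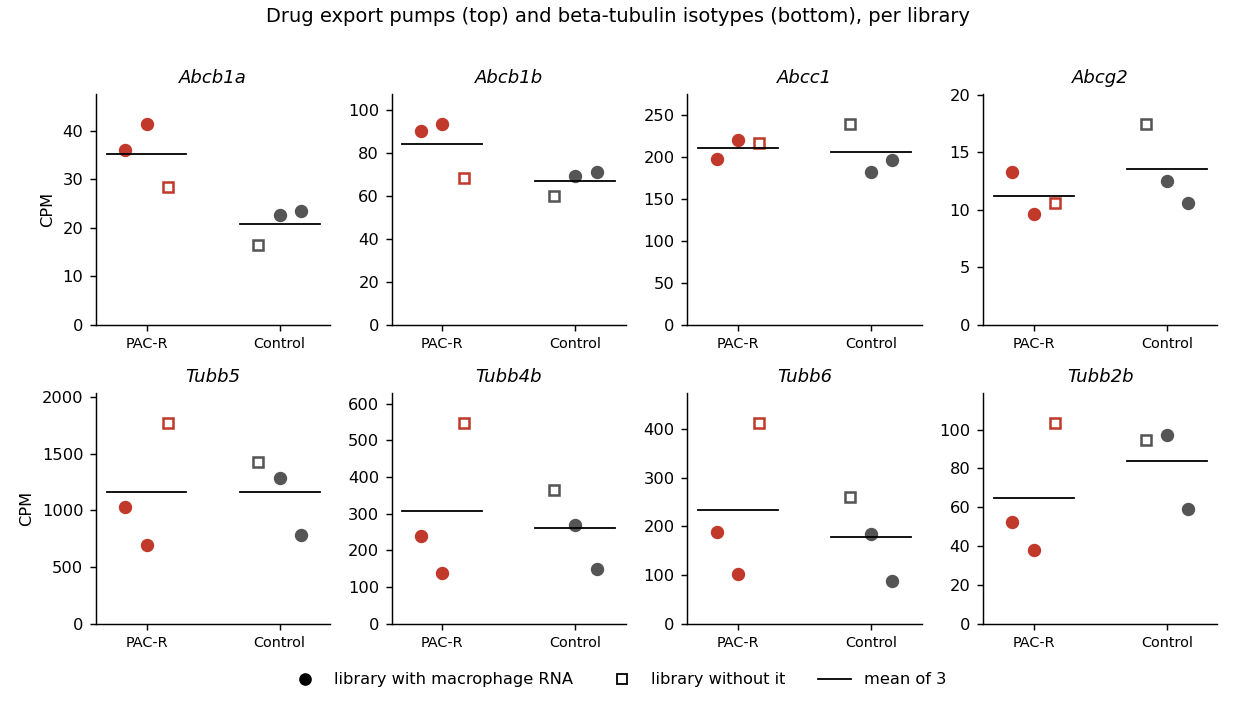
Levels in CPM of 4 export pump genes (top) and 4 beta-tubulin genes (bottom) in each PAC-R and Control library. Circles are libraries with macrophage RNA, squares those without it and lines the means of 3; only in Abcb1a, at 28.5 to 41.5 CPM in PAC-R and 16.4 to 23.4 CPM in Control, do the groups stand apart.

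Genes that act on microtubules or in mitosis held few members with an unadjusted p under 0.05. Of 35 microtubule-associated genes, 0 were higher and 2 lower, against 2.9% higher and 3.01% lower over all genes: Map7, which recruits kinesin-1, was at 2.01, 2.36 and 1.19 CPM in PAC-R, against 3.54, 4.10 and 4.71 CPM in Control (log2 fold change -1.18), and Camsap3, which binds minus ends, was at -1.53. Map4, the main such protein outside neurons, was at 278, 262 and 289 CPM in PAC-R, against 315, 280.2 and 240.4 CPM in Control, a log2 fold change that rounded to 0 (adjusted p = 0.999). Stmn1, which sequesters tubulin, was at -0.16 (adjusted p = 0.842). Among 23 tubulin folding and modifying enzymes, Ttll11, a polyglutamylase, was higher (1.17) and Vash2, which removes the last tyrosine of alpha-tubulin, lower, at 11.5, 11.95 and 13.7 CPM in PAC-R, against 24.8, 18.3 and 22.5 CPM in Control (log2 fold change -0.82, adjusted p = 0.440). Of 33 genes of mitosis and the spindle checkpoint, the securin gene Pttg1 alone passed, at 26.5, 13.0 and 12.5 CPM in PAC-R, against 7.58, 11.6 and 6.63 CPM in Control (log2 fold change 0.99, adjusted p = 0.741), and the median was -0.11.

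Epithelial junction and identity genes had mostly negative fold changes. Of 32 tested members, 11 were lower and 0 higher at an unadjusted p under 0.05, against 3.01% lower over all genes, and 26 of the 32 fold changes were negative. The median log2 fold change was -0.69, with medians of -0.32 between libraries with macrophage RNA and -0.89 between those without. Without PAC-R 3 the median was -0.354, and without Control 1 -0.36. None was called by edgeR. Cldn4, a claudin of tight junctions, was at 1.05, 2.10 and 3.36 CPM in PAC-R 1, 2 and 3, against 16.2, 7.37 and 12.7 CPM in Control 1, 2 and 3, without overlap (log2 fold change -2.50, edgeR adjusted p = 0.191, DESeq2 6.3e-06). Cdcp1, a surface glycoprotein of epithelial cells, was at 17.4, 18.9 and 18.95 CPM in PAC-R, against 39.0, 32.5 and 35.2 CPM in Control, again without overlap (log2 fold change -0.94, edgeR 0.226, DESeq2 0.00470). Ocln, which encodes the tight junction protein occludin, was near the floor in PAC-R, at 0.383, 0.589 and 0.0746 CPM in PAC-R, against 1.01, 1.51 and 1.75 CPM in Control (log2 fold change -2.10). The protease inhibitor gene Spint1 was at -1.59, the polarity gene Pard6b at -0.95 and the claudin gene Cldn1 at -1.15, all without overlap. Cldn3 (-1.46) and the simple keratin gene Krt7 (-0.85) had overlapping groups, and in both genes the library without macrophage RNA was the highest of its group. Krt7 was at 31.0, 33.4 and 158 CPM in PAC-R, against 188, 73.8 and 71.1 CPM in Control.

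Cdh1 and Epcam, the adhesion proteins by which epithelial cells are usually recognised, were less uniform. Cdh1 was at 6.42, 10.2 and 1.79 CPM in PAC-R 1, 2 and 3, against 12.9, 11.7 and 7.07 CPM in Control 1, 2 and 3 and Epcam at 4.98, 6.73 and 0.224 CPM in PAC-R 1, 2 and 3, against 10.2, 8.12 and 4.63 CPM in Control 1, 2 and 3. In both genes PAC-R 3 was the lowest of the 6 libraries, and PAC-R 2 lay within the Control range. PAC-R 1 lay just under that range in Cdh1 and within it in Epcam. The log2 fold changes were -0.96 (SE 0.59, adjusted p = 0.741) and -1.28 (SE 0.95, adjusted p = 0.743), and without PAC-R 3 they were -0.16 and -0.11. Krt8, with a log2 fold change of 0.42, and Krt18, with 0.41, had positive values (adjusted p = 0.751 and 0.741), and their highest library was PAC-R 3.

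**Figure D4:**
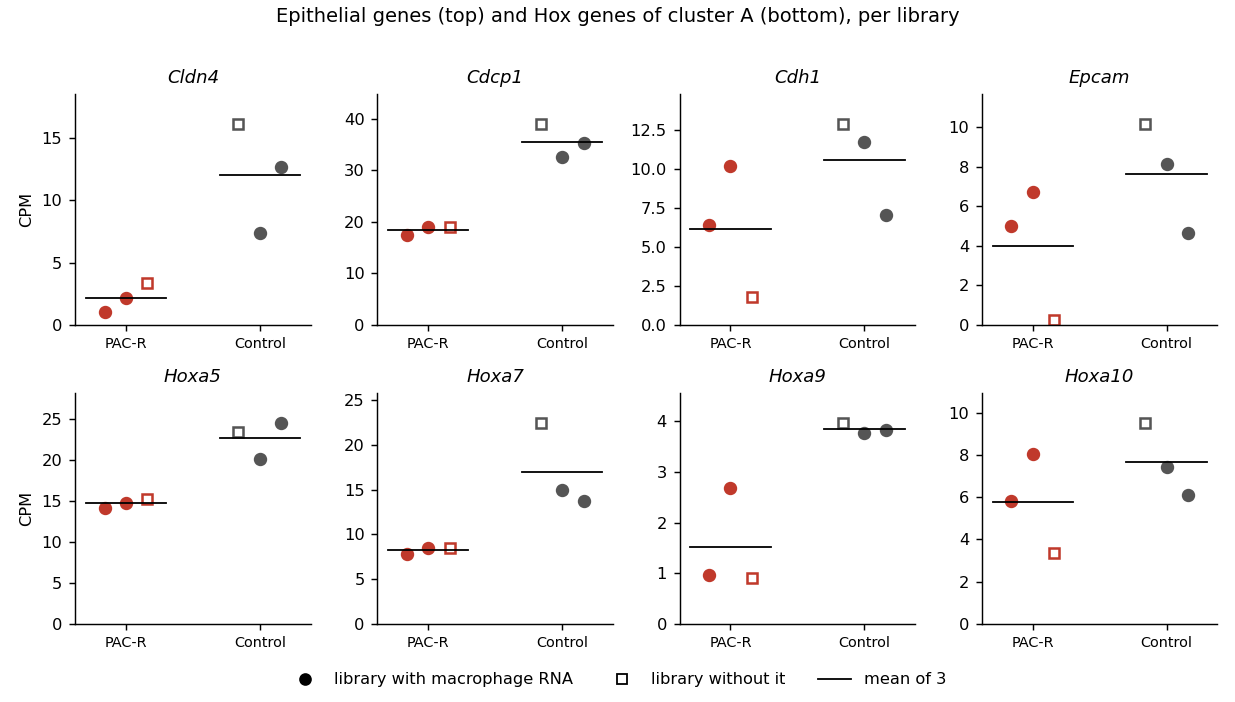
Levels in CPM of the epithelial genes Cldn4, Cdcp1, Cdh1 and Epcam (top) and the Hox genes Hoxa5, Hoxa7, Hoxa9 and Hoxa10 (bottom) in each PAC-R and Control library. Circles are libraries with macrophage RNA, squares those without it and lines the means of 3; in Cldn4, Cdcp1, Hoxa5, Hoxa7 and Hoxa9 every PAC-R library lies under every Control library, at 7.76 to 8.51 CPM in PAC-R and 13.7 to 22.4 CPM in Control for Hoxa7.

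Hox genes, the homeobox factors that set position along the body axis and that cultured cells keep as a memory of their origin, had negative fold changes in every member tested. Of 39 listed, 12 passed the filter on low counts, and 8 were at 0 in all 6 libraries. The tested members were low, with summed levels of 44.3 to 49.7 CPM in PAC-R and 68.3 to 86.0 CPM in Control. All 12 tested members were below 0, 5 of them with an unadjusted p under 0.05, against 3.01% lower over all genes, and the median was -0.76. None was called by edgeR. Hoxa7 was at 7.76, 8.50 and 8.51 CPM in PAC-R 1, 2 and 3, against 22.4, 14.9 and 13.7 CPM in Control 1, 2 and 3 (log2 fold change -1.01, edgeR adjusted p = 0.413, DESeq2 0.0454). Hoxa5 was at 14.2, 14.8 and 15.3 CPM in PAC-R, against 23.4, 20.1 and 24.5 CPM in Control (log2 fold change -0.61) and Hoxa9 at 0.958, 2.69 and 0.896 CPM in PAC-R, against 3.97, 3.77 and 3.84 CPM in Control (log2 fold change -1.38). In these genes no PAC-R library reached a Control library. Hoxb9 was at 0.383, 0.0842 and 0 CPM in PAC-R, against 1.37, 1.59 and 1.22 CPM in Control, close to the floor in PAC-R (log2 fold change -3.23), and Hoxb3 was at -1.18. Hoxa10 was at -0.46, but its sign rested on PAC-R 3 and Control 1, and among the libraries with macrophage RNA alone it was 0.05.

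Several signalling lists that guide development also held more negative than positive values. In the Wnt list, 8 of 30 tested members were lower and 1 higher at an unadjusted p under 0.05, and the median was -0.349. Over all genes 3.01% were lower and 2.9% higher, which is also the background of the counts in the lists that follow. Dkk2, a secreted modulator of Wnt receptors, was at 0.383, 0.589 and 0.0746 CPM in PAC-R 1, 2 and 3, against 3.39, 5.28 and 2.97 CPM in Control 1, 2 and 3 (log2 fold change -3.53, edgeR adjusted p = 0.213, DESeq2 0.00016). The ligand gene Wnt7a was at 0.287, 0.337 and 0.970 CPM in PAC-R, against 4.19, 1.005 and 2.18 CPM in Control (log2 fold change -2.21), the receptor gene Fzd6 at -0.94 and the secreted antagonist Sfrp1 at -0.87, all without overlap. The ligand gene Wnt10a was the member on the higher side, at 0.91. Of 18 Notch pathway genes, 2 were lower and 0 higher, namely Jag2 and Nrarp, a feedback inhibitor of Notch signalling (-0.51). Of 42 semaphorins, plexins, Eph receptors and ephrins, 6 were lower and 1 higher. The receptor gene Epha1 was at 0.766, 1.51 and 0.746 CPM in PAC-R, against 5.20, 2.76 and 3.84 CPM in Control (log2 fold change -1.93, adjusted p = 0.484), Plxnb1 at -0.85, and Sema7a, on the higher side, at 196, 199 and 245 CPM in PAC-R, against 168, 119 and 83.5 CPM in Control (log2 fold change 0.83, edgeR adjusted p = 0.543, DESeq2 0.0371). Among 41 genes of the TGF-beta and BMP pathway, 1 was higher (Inhbb, 0.69) and 2 lower, the ligand gene Bmp7 (-1.16) and the receptor gene Tgfbr1 (-0.82). Growth factor receptors and ligands divided evenly, with 3 higher and 3 lower of 37. The EGF family ligand Areg was at 0.53, Igfbp7 at 0.97, the receptor Flt1 at -0.87 and Igf2r at -0.68. Of 27 MAP kinase feedback genes, 3 were higher and 1 lower, including the phosphatase gene Dusp1 (0.92), Egr2 (0.71) and Spry4 (-0.53).

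**Figure D5:**
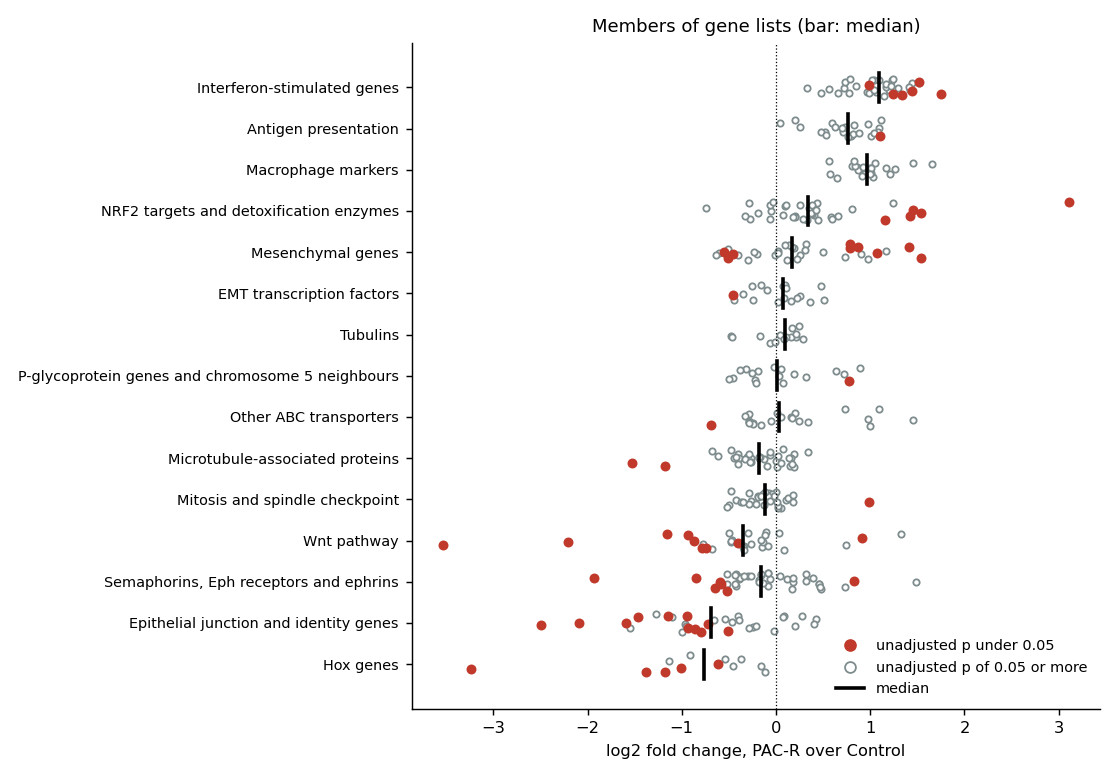
Log2 fold changes (PAC-R over Control) of the tested members of 15 gene lists, with filled points for an unadjusted p under 0.05 and bars for medians. Medians are 1.10 for interferon-stimulated genes and -0.69 and -0.76 for epithelial and Hox genes, and all 35 interferon-stimulated genes lie above 0.

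Mesenchymal and matrix genes had values on both sides. Of 33 tested mesenchymal genes, 6 were higher and 3 lower at an unadjusted p under 0.05, against 2.9% and 3.01% of all genes, and the median was 0.17. Vim had a log2 fold change of 0.12 (SE 0.25, adjusted p = 0.883) and the matrix gene Fn1 -0.20 (SE 0.21, adjusted p = 0.791). S100a4 was at 484, 331 and 1819 CPM in PAC-R, against 769, 341 and 217 CPM in Control, with PAC-R 3 the highest library (log2 fold change 0.78), and the protease inhibitor Timp1 was at 0.87. The mesenchymal cadherin Cdh2 was on the lower side, at 78.0, 101 and 61.2 CPM in PAC-R, against 117, 102 and 128 CPM in Control (log2 fold change -0.55, adjusted p = 0.741). Zeb1, a repressor of epithelial genes, had 0.07 (SE 0.24), and of 18 transcription factors of the epithelial-mesenchymal transition Foxc1 passed the unadjusted threshold, at -0.46. Of 18 collagen genes, 3 were higher and 0 lower. Col5a3 was at 8.04, 7.32 and 3.81 CPM in PAC-R, against 0.794, 2.01 and 0.0873 CPM in Control, without overlap (log2 fold change 2.66, edgeR adjusted p = 0.635, DESeq2 0.0402), while Col5a2 was under 1 CPM in both libraries without macrophage RNA (1.78). Of 24 YAP and actin-SRF targets, 1 was higher and 2 lower, namely Acta2 (1.83), the YAP-inhibiting kinase gene Lats2 (-0.52) and Arhgef17 (-0.50). Integrins and other adhesion receptors had 1 higher and 2 lower of 27. Itgb7 was at 4.02, 3.79 and 13.7 CPM in PAC-R, against 1.37, 1.93 and 1.13 CPM in Control (log2 fold change 2.03, edgeR adjusted p = 0.530, DESeq2 0.0257). Cadm1, an immunoglobulin-type adhesion molecule, was at 165, 172 and 140.2 CPM in PAC-R, against 244, 248 and 313 CPM in Control (log2 fold change -0.75, edgeR adjusted p = 0.512, DESeq2 0.0481). Cdh10 was at -1.60.

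Markers of mammary lineages gave the following. Of 10 tested basal genes, 2 were higher (Trp63, 1.5, and Acta2) and 3 lower at an unadjusted p under 0.05, against 2.9% and 3.01% of all genes. Ngfr, the low-affinity neurotrophin receptor of basal cells, was at 0.383, 0.673 and 1.19 CPM in PAC-R, against 4.40, 2.85 and 4.10 CPM in Control (log2 fold change -2.36, edgeR adjusted p = 0.226, DESeq2 0.00536), and the laminin gene Lama3 was at -2.07, with every PAC-R library near the floor. Of 12 luminal genes, 2 were higher, Areg and the casein gene Csn3 (0.51), and 0 lower. Fibroblast markers, 16 in the list, had 8 tested members, 6 of them with positive and 2 with negative log2 fold changes. Their median was 0.99, with 1.52 between libraries with macrophage RNA and -0.56 between those without. The list had a summed level of 209.4 to 419.6 CPM in PAC-R and 149.6 to 276.4 CPM in Control. Dpt and Mfap5 were at 0 in all 6 libraries. At an unadjusted p under 0.05, 1 tested member was higher, Gsn at 0.76 (edgeR adjusted p = 0.530, DESeq2 0.0343), and 2 were lower, Fbln1 at -0.999 (edgeR 0.312, DESeq2 0.0205) and Pdgfra at -0.51. The part of such cells in the matrix gene values was not tested.

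Interferon-stimulated genes had positive fold changes alongside the macrophage markers. All 35 were above 0, 6 of them with an unadjusted p under 0.05, against 2.9% higher over all genes, and none was called. The median was 1.10. It was 0.63 with the macrophage marker score, the mean log2 CPM of the listed markers, as the covariate in place of presence. Between libraries with macrophage RNA the median difference was 1.36, and between those without it 0.39. Leaving out PAC-R 1 gave a median of 0.50 and leaving out Control 3 one of 0.66. Rsad2, an antiviral enzyme, was at 4429, 1603 and 2.69 CPM in PAC-R 1, 2 and 3, against 0.505, 1487 and 509 CPM in Control 1, 2 and 3. It was under 3 CPM in both libraries without macrophage RNA, and PAC-R 1, which held the most macrophage RNA, was the highest (log2 fold change 1.75, adjusted p = 0.741). Zbp1, a sensor of nucleic acids, was at 177, 65.0 and 1.87 CPM in PAC-R, against 0.577, 67.8 and 24.6 CPM in Control, and the ubiquitin-like protease gene Usp18 had a log2 fold change of 1.51. All 22 tested macrophage markers had positive fold changes with a median of 0.96, none with an unadjusted p under 0.05. That median ranged from 0.16 without PAC-R 1 to 1.78 without Control 2, and was -0.15 with the marker score as covariate. The part of macrophage RNA in the interferon result was not tested further. The antigen presentation list had 23 of 23 positive, 1 with an unadjusted p under 0.05 (Nlrc5, 1.10) and a median of 0.76, which was 0.30 without PAC-R 1, 1.29 without Control 2 and 0.47 without Control 3. In the list of cytokines, chemokines and NF-kB targets, 36 of 39 were positive with a median of 0.67, but the median was 0.07 between the libraries without macrophage RNA, and over the omissions of a library it ranged from 0.24 without PAC-R 1 to 1.23 without Control 2. Csf2, the gene for the growth factor GM-CSF, was at 39.2, 45.6 and 41.0 CPM in PAC-R, against 27.8, 34.1 and 28.9 CPM in Control, without overlap (log2 fold change 0.48, adjusted p = 0.741), and Il34, a ligand of the macrophage receptor CSF1R, was at 0.67. Of the markers of other leukocytes, 2 were tested, both with positive values (median 1.37), and of the adipocyte, erythroid and muscle markers Fabp4 was tested, at 27.7, 10.02 and 0.448 CPM in PAC-R, against 0.144, 10.1 and 4.02 CPM in Control, so that it followed the macrophage markers (log2 fold change 1.44).

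Detoxification genes had mostly positive fold changes. Of 36 tested NRF2 targets and detoxification enzymes, 5 were higher and 0 lower at an unadjusted p under 0.05, against 2.9% higher over all genes, and the median was 0.34. It was between 0.20 and 0.22 without PAC-R 1, PAC-R 3, Control 1 or Control 3. Cyp3a13, a cytochrome of the CYP3A family, which oxidises taxanes among other drugs, was at 1.34, 3.28 and 1.12 CPM in PAC-R, against 0.0722, 0.419 and 0.175 CPM in Control (log2 fold change 3.11, edgeR adjusted p = 0.35, DESeq2 0.0355). All its PAC-R values were above all Control values, at low levels. Aldh3a1, an aldehyde dehydrogenase, was at 40.2, 40.2 and 286 CPM in PAC-R, against 98.4, 22.03 and 19.6 CPM in Control (log2 fold change 1.16, edgeR adjusted p = 0.226, DESeq2 0.00028). PAC-R exceeded Control in Aldh3a1 both with and without macrophage RNA, and the library without it was the highest of each group. The glutathione transferase gene Mgst2 was at 1.43 (edgeR adjusted p = 0.455, DESeq2 0.0470).

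Cell death and stress genes were read against the 2.9% of all genes that were higher and the 3.01% that were lower at an unadjusted p under 0.05. Of 36 members of the BCL2 family and death receptors, 2 were higher, Tnfrsf26 and Tnfrsf1a (0.46), and 1 lower, the pro-apoptotic Bcl2l11 (-0.42, adjusted p = 0.741). The anti-apoptotic Bcl2, Bcl2l1 and Mcl1 had log2 fold changes of -0.21, -0.01 and 0.26 (SE 0.21, 0.20 and 0.27), with overlapping groups. Of 27 p53 targets, 4 were higher and 0 lower. The cell cycle inhibitor Cdkn1a was at 361, 172 and 179 CPM in PAC-R 1, 2 and 3, against 82.7, 193 and 137 CPM in Control 1, 2 and 3, where Control 2 exceeded PAC-R 2 and 3 (log2 fold change 0.84, adjusted p = 0.741). The kinase gene Plk2 was at 0.55, without overlap, and Gadd45b at 1.12. The SWI/SNF and chromatin list had 1 lower of 42 (Arid1b, -0.44), with a median of -0.11. In the unfolded protein and integrated stress responses 0 of 30 passed in either direction, in cholesterol and fatty acid synthesis 0 of 31, and among mitochondrially encoded genes 0 of 13. The count for the stress responses left out Ddit3, a listed and well expressed gene. Its levels were 37.1, 44.5 and 11.5 CPM in PAC-R, against 6.42, 22.9 and 46.9 CPM in Control, and no test of it was read. Of 32 glycolysis and hypoxia genes, Ndrg1 was higher, at 0.60 (adjusted p = 0.550). The listed Aldoa was likewise left out of that count, at 796, 461 and 1220 CPM in PAC-R, against 862, 777 and 412 CPM in Control.

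Whether PAC-R differed from Control by the same amount in libraries with and without macrophage RNA was tested with an interaction term. No gene of 13144 was called by edgeR, while 1270 (9.66%) had an unadjusted p under 0.05, and DESeq2 called 19. Each group had 1 library without macrophage RNA, so that a difference here may be that of a single library. Epcam had an interaction of 5.32 on the log2 scale (with minus without; unadjusted p = 0.00176), Cdh1 2.67 (0.0140) and Krt18 -1.04 (0.0168). For Cavin1, Cd34, C130074G19Rik and Prl3d2 the unadjusted p of the interaction was 0.153, 0.719, 0.358 and 0.214.

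PAC-R was compared directly with VIN-R, the derivative selected with a drug that binds tubulin but destabilises microtubules. Of 13069 genes tested, 0 were called by edgeR (0%), 266 had an unadjusted p under 0.05 (2.04%), and DESeq2 called 26 higher and 6 lower in PAC-R. Cavin1 had the smallest p, with a log2 fold change of 2.76 (unadjusted p = 1.8e-05, adjusted p = 0.238). With the macrophage marker score as covariate its adjusted p was 0.0172 and it was the gene called, and over the alternatives its adjusted p ranged from 4.73e-16 to 1. Cd34 and C130074G19Rik had log2 fold changes of -1.32 and -1.43 between PAC-R and VIN-R (adjusted p = 0.99998 for both), and Prl3d2 did not pass the filter there. Abcb1a had -0.27 (adjusted p = 0.99998). The comparisons of PAC-R and VIN-R with Control share the Control libraries, so that their values are only set side by side: Tnfrsf26 was at 9.69, 9.95 and 8.63 CPM in VIN-R, Acsl6 at 4.35, 2.01 and 3.83 CPM, Pax6 at 1.34, 0.730 and 1.62 CPM and Sgce at 5.43, 2.92 and 4.498 CPM.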

How the data were processed

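Polyadenylated RNA of 12 PB3 libraries was sequenced from 200 ng of RNA as paired ends of 76 bases, per the labels' protocols. The submitters' processing notes name bcl2fastq 2.20.0.422, cutadapt 2.4, STAR 2.7.2b, RSEM 1.3.2 and GRCm38. Neither the annotation nor the strandedness of counting is named there. The deposited files are RSEM gene results with expected counts, which are estimated read pairs per gene without normalization, and TPM, a level per length, per the file headers.

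Expected counts were rounded, which altered 15.3% of values above 0. Of 55573 genes, 55480 had a symbol in GENCODE M21. filterByExpr kept 13144 genes, scaled by TMM and tested with edgeR 4.0.16 (R 4.3.3, limma 3.58.1; robust quasi-likelihood, 3 residual degrees of freedom) on group and presence of macrophage RNA, meaning Lyz2 above 100 CPM. DESeq2 1.42.0 was an alternative. CPM in the text use TMM factors over all libraries, and log2 CPM a prior count of 1. TPM were used for levels between genes. The steps were checked on simulated counts. The counting floor is 3 counts per library, intervals are at 95%, and both cover counting error only.

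The rule for named genes took the 12 largest called changes each way with at least 5 CPM, up to 3 called genes each way per list, and fixed genes. Too few genes were called for it, so the 12 smallest p each way, up to 2 genes each way per list, and some further genes were added after the values were seen. The comparison and its 37 lists were chosen with earlier results of these data known, and the 38th list, of caveolar genes, after Cavin1 was called.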

Additional observations from a re-analysis of the deposited data

How the results depend on the processing

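Every alternative kept the direction of the 4 called genes, but not their calls. Against 1 gene higher and 3 lower in PAC-R, edgeR called 0 and 0 without the macrophage covariate and 0 and 0 in the libraries with macrophage RNA alone. It called 2 and 6 with the macrophage marker score as covariate, 2 and 1 in a fit of all 12 libraries and 21 and 43 without a filter on low counts. DESeq2 called 37 and 61. Leaving out a library gave 0 higher and 0 to 2 lower. DESeq2's size factors in edgeR, library totals alone and a filter of 1 CPM gave 1 and 3 again. Against VIN-R, where 0 were called, the marker score gave 1 higher, DESeq2 26 higher and 6 lower, and no filter 8 higher and 2 lower. The interaction gave 0, and 19 with DESeq2. The cause of these moves was not tested.

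The sign of some log2 fold changes turned. With the marker score it turned for Lyz2 (-0.48), Bcl2l1 (0.051), Cav2 (-0.0943) and Map4 (0.0116). In libraries with macrophage RNA alone it turned for Hoxa10 (0.0498), Tubb2a (-0.0955), Vim (-0.000197), Tubb4b (-0.14), Ehd2 (-0.11) and Map4 (0.0567). It also turned for Tubb5 (0.00351) and Bcl2l1 (0.0582) without the covariate, and for Abcc1 (-0.0112), Ehd2 (-0.0595) and Cav2 (-0.0565) on library totals. DESeq2 gave 0.00664 for Bcl2l1 and 0.0204 for Map4, its size factors in edgeR 0.00618 and 0.0205. Cav2 was -0.0919 in the fit of 12 libraries, and Map4 0.0127 without a filter and 0.000922 with that of 1 CPM. Over the omissions of a library the values ranged over -0.15 to 1.09 for Abcb4, -0.0255 to 0.15 for Abcc1, -0.22 to 0.10 for Bcl2l1, -0.15 to 0.35 for Cav2, -0.12 to 0.14 for Ehd2, -0.75 to 0.0498 for Hoxa10, -0.082 to 0.0569 for Map4, -0.0423 to 0.46 for Mcl1, -0.44 to 0.0401 for Stmn1, -0.10 to 0.45 for Tubb2a, -0.92 to 0.00702 for Tubb3, -0.15 to 0.45 for Tubb4b, -0.27 to 0.22 for Tubb5, -0.049 to 0.32 for Vim and -0.11 to 0.37 for Zeb1.

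With the replicate number as a block, 45 genes were called higher and 51 lower, including the 4 called without it, at 1 residual degree of freedom, and 0 against VIN-R. The block turned Lyz2 (-0.41), Cav2 (-0.00198) and Map4 (0.00187). Deviations of same-numbered PAC-R and Control libraries from their group means correlated at -0.89, 0.53 and -0.77 for numbers 1, 2 and 3, where numbers 1 and 3 each join a library with macrophage RNA to one without. With presence of macrophage RNA also removed they correlated at 0.36, -0.69 and 0.38, but that fit itself constrains these residuals (-1 between PAC-R 3 and Control 1). No label ties the numbers to a culture, so the libraries are taken to share only a number. The block was not run for the interaction, which left too few degrees of freedom. Leaving out PAC-R 3 or Control 1 was not run there either, since no interaction can then be estimated.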
